A study of Danio rerio with 12 samples.

Results

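The loss of panx1a alone was examined here by comparing panx1a-/- larvae with TL controls, using 6 of the 12 libraries of the series, 3 libraries of each line. The members are the libraries whose titles name the panx1a knock-out and those whose titles name the TL control. All were made from whole zebrafish larvae at 6 dpf, with 1 pool of larvae behind each library. The panx1a-/- line carries TALEN-made mutant alleles of panx1a, a gene of the pannexin 1 pair, and has panx1b intact, and the TL controls are Tupfel long fin wild-type larvae with both genes intact. The larvae of all groups were untreated. The other 6 libraries, 3 of the double knock-out and 3 of panx1b-/- larvae, gave the same loss of panx1a in larvae that also lack panx1b, and they enter only where both backgrounds are set side by side. Each genotype was 1 line, so a difference between the lines other than panx1a cannot be told apart from the loss of panx1a. The labels do not name the parents or clutches of the pools, and p-values therefore measure the spread between these pools. In whole larvae, fewer cells of a type and less RNA per cell cannot be told apart.

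Pannexin 1 forms large-pore membrane channels that let ATP and other small molecules leave the cell, and the released ATP and its breakdown product adenosine act on purinergic receptors of nearby cells. Zebrafish hold a pair of pannexin 1 genes, panx1a and panx1b, which arose by the whole-genome duplication of teleosts. The proteins of this pair are known from the retina and other neural tissue, and panx1a is also found widely outside the nervous system.

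Between 20726397 and 25893206 reads (median 25379413) were assigned to genes in the panx1a-/- libraries and between 20581029 and 29259122 (median 22624215) in the TL libraries. Libraries of the same line differed by more than sampling noise, since chi-square over its degrees of freedom was 10.16 to 17.8 between panx1a-/- libraries and 11.9 to 16.6 between TL libraries, and all were kept as separate replicates. The first principal component held 51.9% of the variance and separated the lines, with panx1a-/- libraries at 27.01 to 31.23 and TL libraries at -31.6 to -23.2. The second held 17.8% and spread TL replicates 1 and 2 apart, at 23.7 and -32.0.

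Both pannexin 1 genes carry the symbol PANX1 in the gene names used here, and which identifier is panx1a could not be read from these names. PANX1 (ENSDARG00000025285) had 3.84, 4.79 and 4.14 CPM in panx1a-/- larvae, against 13.1, 11.7 and 14.4 CPM in TL controls, where CPM is the read count scaled to library size after TMM normalization. The groups did not overlap, and the gene was downregulated with a log2 fold change of -1.61 (SE 0.14, adjusted p = 6.74e-05 by the quasi-likelihood test of edgeR). PANX1 (ENSDARG00000014910) had 7.50, 8.81 and 8.24 CPM in panx1a-/- larvae, against 6.92, 5.76 and 4.68 CPM in TL controls. Its panx1a-/- values were all above those of TL, but the log2 fold change of 0.51 (SE 0.16, adjusted p = 0.0809) missed the threshold. A targeted lesion need not lower the RNA of its gene, so these values check the labels only in part. The remaining pannexins did not pass the test, with log2 fold changes of -0.31 (SE 0.19) for PANX2 and -0.70 (SE 0.32) for PANX3. In the panx1b-null background, the double knock-out against panx1b-/- larvae, the log2 fold changes were of -1.17 (adjusted p = 9.08e-05) for ENSDARG00000025285 and -0.64 (adjusted p = 0.017, not called) for ENSDARG00000014910.

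**Figure D1:**
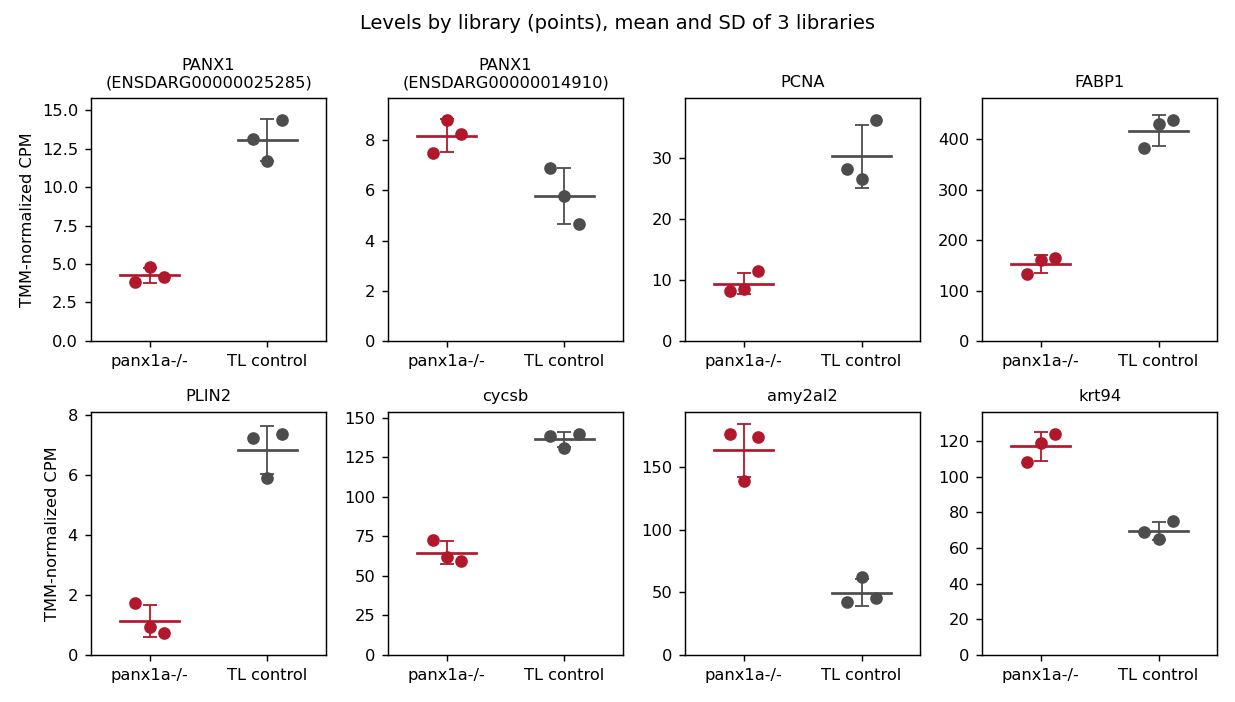
Normalised expression in CPM (vertical axes, starting at 0, a scale per panel) of selected genes in each of the 3 panx1a-/- libraries (left) and the 3 TL libraries (right). Points are libraries, and the bars give the mean and SD of 3 libraries. PCNA sits at 8.15 to 11.4 CPM in panx1a-/- larvae and at 26.6 to 36.2 CPM in TL controls, without overlap.

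Of 24987 genes with at least 1 count in every one of the 6 libraries, 572 (2.29%) were upregulated and 722 (2.89%) were downregulated in panx1a-/- larvae, 1294 genes (5.18%) in all. Both the adjusted p-value (under 0.05) and the p-value itself (under 0.001) had to pass for a call. These shares are the background for every count of list members that follows. At an unadjusted p-value under 0.05 there were 5874 genes. The libraries of the lines did not overlap for any of the 1294 called genes, while non-overlap was found for 28.4% of all genes tested. Fold changes were evenly spread about 0, with 50.9% of genes below it and a median of -0.0051. Of the called genes, 131 shared their symbol with another identifier, as duplicated zebrafish genes do, and a symbol given without an identifier stands for the called gene of that symbol. The counts rested in part on single libraries. Without TL replicate 3, 354 genes were up- and 425 downregulated, and without panx1a-/- replicate 3 the numbers were 355 and 479.

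Among the most strongly upregulated genes with an informative symbol were several enzymes, a transporter-linked ferroxidase and a peroxidase. GGACT (ENSDARG00000038248), which breaks down the crosslinks that transglutaminases make, had 4.59, 2.49 and 2.97 CPM in panx1a-/- larvae and 0.225, 0.328 and 0.216 CPM in TL controls, a log2 fold change of 3.69 (SE 0.35, adjusted p = 0.000105). The groups were far apart, and a paralog of the same symbol, ENSDARG00000070579, rose by 2.45 on the log2 scale. The gene clca1, whose mammalian relatives are secreted regulators of chloride channels in mucous epithelia, had 33.5, 39.1 and 37.6 CPM in panx1a-/- larvae and 5.66, 2.06 and 3.06 CPM in TL controls, a log2 fold change of 3.36 (SE 0.25, adjusted p = 2.13e-05). HEPH, a ferroxidase that passes iron out of enterocytes in mammals, had 48.496, 44.6 and 40.7 CPM against 11.6, 2.44 and 9.32 CPM in TL controls (log2 fold change 2.51). The spread of HEPH was wider among the TL libraries than among the mutant ones. The peroxidase gene epx, which marks eosinophils, rose by 2.51, and the cytosolic sulfotransferases sult3st4 and sult3st5 by 2.67 and 2.48. Further genes with large increases were pih1d2, of a family of dynein assembly factors (3.2), the glycosyltransferase B3GNT3 (3.07), ccdc125 (2.49), znf1021 (2.23) and the alcohol dehydrogenase gene adh5l (2.21). Whatever their symbol, the genes with the largest increases were ENSDARG00000114158 (5.35), si:ch211-226f24.4 (5.11) and si:dkey-62k3.5 (4.63), for which no function was at hand.

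The most strongly downregulated genes with an informative symbol included members of immune and apolipoprotein gene families. The gene nlrc11, named as a member of the NLR family of cytosolic sensors, had 0.187, 0.195 and 0.273 CPM in panx1a-/- larvae, against 21.1, 25.6 and 27.09 CPM in TL controls, a log2 fold change of -6.77 (SE 0.21, adjusted p = 1.17e-08). It was close to 0 in every mutant library. The complement gene c6.1, of the family that builds the membrane attack complex, had 0.281, 0.351 and 0.117 CPM in panx1a-/- larvae and 3.68, 3.65 and 3.13 CPM in TL controls (log2 fold change -3.78, SE 0.32). ITLN1, a lectin that binds microbial sugars, had 2.25, 1.6 and 2.34 CPM in panx1a-/- larvae and 14.3, 16.2 and 17.7 CPM in TL controls (-2.96, SE 0.17). Downregulated with them were apoa4b.3, an apolipoprotein gene of the gut and yolk (-3.45), cbln8 of the cerebellin family of secreted synaptic proteins (-3.24), the zinc finger gene znf1179 (-3.13), the interferon-inducible gene ifi44a5 (-2.98), coro2ab of the actin-binding coronins (-2.91), TRIM62 (-2.86) and nlrb5 (-2.85). The acute phase gene crp5 (-3.18) lost its call without panx1a-/- replicate 3 (log2 fold change -3.37), and ahrra, a repressor of the aryl hydrocarbon receptor (-2.82), lost its call without panx1a-/- replicate 1 (-2.58) or replicate 3 (-2.75). Genes of families with near-identical copies, such as the NLR genes, carry counts that may be split between copies, and their fold changes are uncertain for that reason. The largest decreases of all were in Metazoa_SRP copies, ENSDARG00000116411 (-7.83) and ENSDARG00000114626 (-7.78), and in si:dkey-18p12.4 (-7.68). The last of these had 7 counts in panx1a-/- larvae against 1495 in TL controls, a ratio of 212 with a 95% counting interval of 103 to 529, which covers counting error only.

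Most genes of the cell cycle had lower values in panx1a-/- larvae. The list held mostly DNA replication and mitosis genes, with a few checkpoint genes and cell cycle inhibitors. Of its 79 tested members, 0 were up- and 8 downregulated, and 73 had a fold change below 0. The median log2 fold change was -0.42 against -0.0051 over all genes. PCNA, the sliding clamp of DNA replication, had 8.15, 8.57 and 11.4 CPM in panx1a-/- larvae, against 28.1, 26.6 and 36.2 CPM in TL controls, and was downregulated with a log2 fold change of -1.69 (SE 0.16, adjusted p = 8.47e-05). MCM5, a subunit of the replicative helicase, had 9.46, 4.91 and 7.15 CPM against 14.8, 15.4 and 19.3 CPM in TL controls (-1.21, SE 0.20). The mitotic kinase gene plk1 had 4.59, 3.78 and 4.22 CPM against 9.21, 6.70 and 8.67 CPM in TL controls (-0.97, SE 0.16), and the centromere protein gene CENPF fell by 0.90. These 4 genes kept their calls with every library left out in turn. The other called members were the helicase subunits MCM6 and MCM4 and the spindle genes TPX2 and kif11, between -1.23 and -0.81. Their calls ended without TL replicate 3 and, except for MCM6, also without panx1a-/- replicate 3. That of TPX2 ended without TL replicate 1 as well. With all 12 libraries in one fit, CENPF, TPX2 and kif11 were not called. Replicate 2 of panx1a-/- was the lowest of its line for MCM5 and for the summed level of the list, at 644 CPM beside 897 and 765 CPM in replicates 1 and 3, with 1038, 926 and 1066 CPM in TL controls. The number of downregulated members was 4 without TL replicate 3 and 22 without panx1a-/- replicate 1, and 17 with DESeq2, while the list median stayed between -0.655 and -0.278 with each library left out.

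Histone genes, which dividing cells need for new chromatin, were lower in the same larvae. The histone list itself had 13 tested genes, with 0 up- and 2 downregulated (hist2h3c and h2ax1) and a median of -0.29. The wider groups below hold these 2 genes too. Their members were picked by name after values had been seen, and are given as a description. The 18 tested genes named for the replication-dependent histone clusters were all below 0, with 13 downregulated and 0 upregulated, a median of -1.2 and a range of -2.12 to -0.62. Their summed level was 77.1, 88.1 and 110.7 CPM in panx1a-/- larvae, against 203.6, 179.0 and 218.9 CPM in TL controls, without overlap. For hist1h2a10 the libraries had 2.67, 2.26 and 3.79 CPM in panx1a-/- larvae and 12.6, 10.7 and 14.8 CPM in TL controls (log2 fold change -2.12, SE 0.20, adjusted p = 8.80e-05). The values of h3c13a (-1.68), h2bc1 (-1.46) and hist2h3c (-1.30) were also lower. The 16 replacement, variant and linker histone genes were closer to TL, with 1 upregulated (h2af1al, 1.39), 3 downregulated (h1l1 at -1.11, h2ax2 at -0.89 and h2ax1 at -0.48) and a median of -0.23. The calls of h2ax2 (without TL replicate 3, -0.77), h1l1, h2ax1 and h2af1al each ended with at least 1 library left out. Among the cluster-named genes, so did those of hist1h2a8, hist1h2a11, hist2h2l and hist2h3ca1. The summed levels of the variant group were 714.5, 774.7 and 795.3 CPM in panx1a-/- larvae and 794.3, 852.2 and 874.8 CPM in TL controls, groups that overlapped narrowly. Cluster histones are near-identical copies, so the fold of a single copy is uncertain. Many of their transcripts also lack a poly(A) tail, and how the libraries selected RNA is not given in the sources used here. The summed level of the group is therefore uncertain too, and whether RNA selection differed between the lines was not tested.

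**Figure D2:**
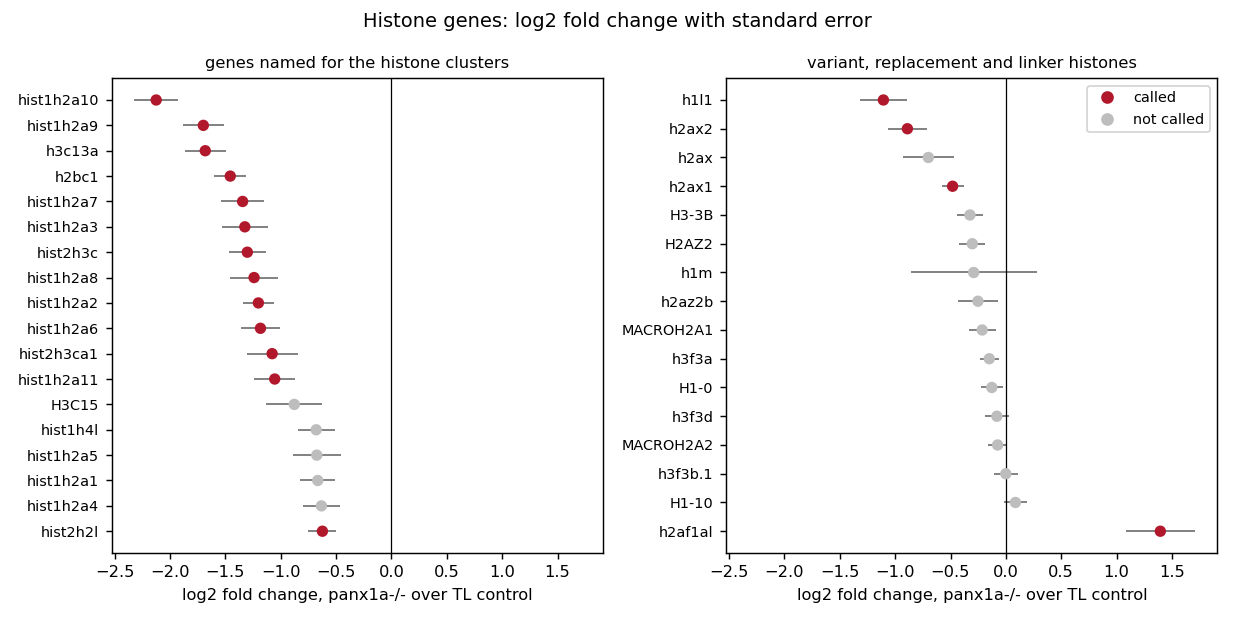
Log2 fold change, panx1a-/- over TL control (horizontal axes), of 18 cluster-named histone genes and 16 variant or linker histone genes. Bars are standard errors and filled red points are called genes. Cluster-named genes lie between -2.12 and -0.62, and the variant group has a median of -0.23.

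In the order of the reference annotation, the called genes with the densest packing also sat among histones. Of the 24987 tested genes, 15961 had a place in that order, and runs were taken among these placed genes. A run of 30 neighbouring placed genes from arhgef11 to zgc:110425 held 22 called genes, all downregulated and 7 of them histone-named. Their called fold changes lay between -3.41 and -0.65. A second run, from VPS4A to si:dkey-261m9.17, held 16 called genes, all downregulated and 3 histone-named. In the panx1b-null background 13 of 29 and 16 of 29 tested genes of these runs were downregulated. The runs were picked for their number of calls and carry no test.

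Genes of fatty acid use and lipoproteins were mostly lower. Of 59 tested genes, 2 were up- and 11 downregulated, with a median of -0.22. PLIN2, which coats lipid droplets, had 1.73, 0.935 and 0.742 CPM in panx1a-/- larvae, against 7.23, 5.90 and 7.38 CPM in TL controls, and was downregulated with a log2 fold change of -2.61 (SE 0.26, adjusted p = 0.000152). The groups lay far apart. The apolipoprotein genes apoa4b.1, apoa4b.2 and apoa4b.3 fell together by 0.80, 1.1 and 3.45, although they are near copies of each other. The mitochondrial fatty acid importer cpt1ab had 33.0, 26.0 and 32.23 CPM against 61.5, 52.0 and 59.4 CPM in TL controls (-0.92, SE 0.11), and the lipase inhibitor ANGPTL4 fell by 0.72. The called genes ACADL, HADHB, hadhaa, apoc2, LIPC and the upregulated PLTP, lost their call with at least 1 library left out. Between 7 (without TL replicate 3 or panx1a-/- replicate 2) and 14 (without TL replicate 2) members were downregulated with a library left out, and 1 was upregulated without TL replicate 3 or any panx1a-/- library.

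Markers of enterocytes moved in both directions. Of 52 tested, 3 were up- and 8 downregulated, with a median of -0.10. FABP1 (ENSDARG00000059227), a fatty acid carrier, had 133, 161 and 164 CPM in panx1a-/- larvae, against 383, 431 and 438 CPM in TL controls (log2 fold change -1.45, SE 0.11, adjusted p = 2.35e-05). RBP2 (ENSDARG00000093774), which carries retinol in enterocytes, had 10.21, 12.004 and 12.9 CPM against 36.8, 28.3 and 37.7 CPM in TL controls (-1.55, SE 0.14). Both genes stood clear of the TL range in every library. The neutral amino acid transporter SLC6A19 (ENSDARG00000018621) rose, with 37.95, 32.9 and 35.44 CPM against 19.04, 19.6 and 18.9 CPM in TL controls (0.89, SE 0.09). The summed level of all members overlapped, at 7490, 7335 and 7859 CPM in panx1a-/- larvae and 7783, 8017 and 9283 CPM in TL controls. Upregulated members numbered 1 without panx1a-/- replicate 3.

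Nuclear genes of the respiratory chain were lower by small amounts. Of 87 tested, 0 were up- and 11 downregulated, 78 were below 0 and the median was -0.23. The gene cycsb, encoding cytochrome c, had 72.8, 62.2 and 59.3 CPM in panx1a-/- larvae, against 139, 131 and 140 CPM in TL controls, a log2 fold change of -1.08 (SE 0.10, adjusted p = 7.74e-05). The next were COX7A2 of complex IV (-1.09), ndufc1 of complex I (-0.85), atp5mc1 of the ATP synthase (-0.74) and UQCR10 of complex III (-0.55). All 5 kept their calls with each library left out. The number of downregulated members was 5 without TL replicate 3, 7 without panx1a-/- replicate 1 and otherwise up to 14 among the fits with a library left out, and 17 with DESeq2. The list median lay between -0.288 and -0.182 in these fits.

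**Figure D3:**
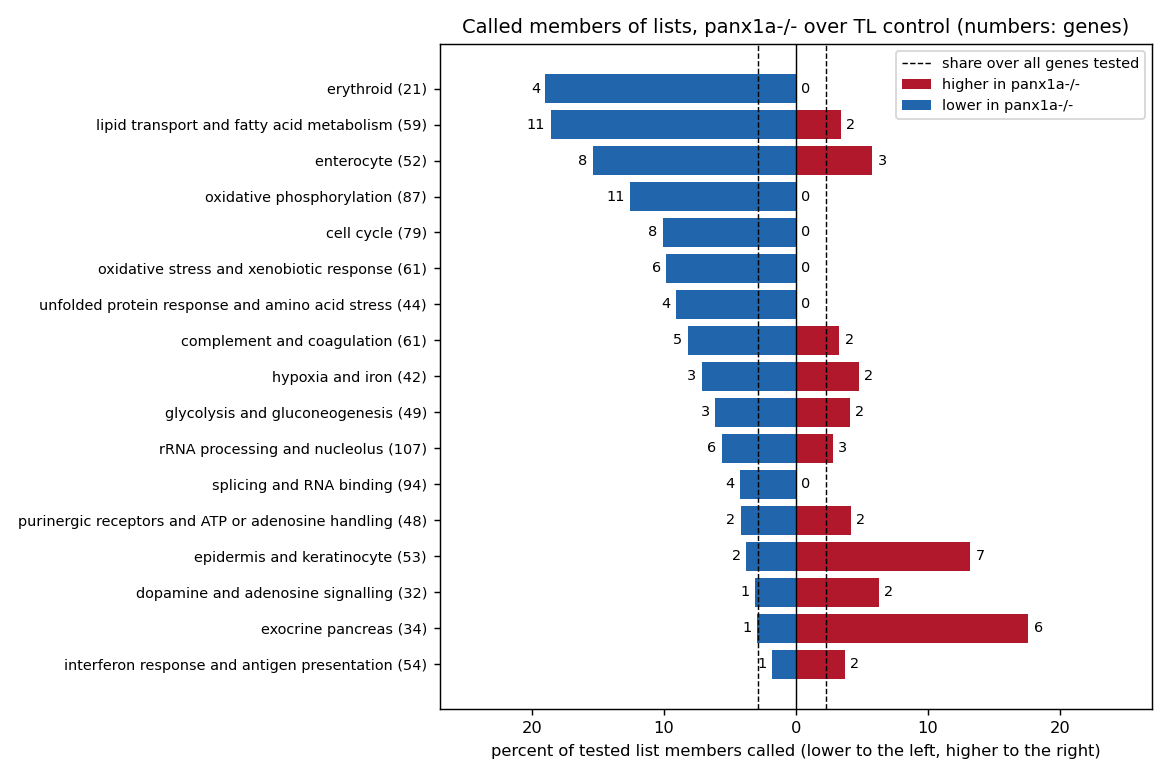
Percent of tested members of each list called in panx1a-/- larvae over TL controls (horizontal axis), upregulated to the right and downregulated to the left, for the 17 lists with at least 3 called members. Numbers at the bars are genes, and dashed lines mark the shares over all genes tested, 2.29% and 2.89%. The cell cycle, respiratory chain and oxidative stress lists have downregulated members and no upregulated ones.

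By number, digestive enzymes of the exocrine pancreas were the list with most upregulated members after the epidermis. Of 34 tested, 6 were up- and 1 downregulated, with a median of 0.21. The pancreatic amylase gene amy2al2 had 177, 139 and 175 CPM in panx1a-/- larvae, against 42.2, 62.1 and 45.4 CPM in TL controls (log2 fold change 1.71, SE 0.15, adjusted p = 6.63e-05). The elastase gene cela1.3 had 8.34, 8.89 and 9.96 CPM against 3.996, 4.50 and 3.13 CPM in TL controls (1.24, SE 0.16), and CPA1 (ENSDARG00000030915), a carboxypeptidase, had 102, 94.6 and 121 CPM against 48.4, 56.1 and 68.0 CPM (0.88, SE 0.13). None of these groups overlapped. The elastase ela3l went the other way, with 247, 322 and 293 CPM against 530, 489 and 538 CPM in TL controls (-0.85, SE 0.11). The summed level of the list was 6981, 6772 and 8177 CPM in panx1a-/- larvae and 5396, 5856 and 6869 CPM in TL controls, overlapping by panx1a-/- replicate 2. With a library left out, 3 (without TL replicate 1 or panx1a-/- replicate 3) to 5 members were upregulated.

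Epidermal genes held the largest number of upregulated members of any list, 7 of 53 tested (13.2%), with 2 downregulated and a median of 0.17. By share, the lists of exocrine pancreas (17.6%) and of T and NK cell and thymus (14.3%) were higher. The keratin gene krt94 had 108, 119 and 124 CPM in panx1a-/- larvae, against 68.8, 65.3 and 74.9 CPM in TL controls (log2 fold change 0.75, SE 0.09, adjusted p = 0.000582). ITGB4, the integrin subunit of hemidesmosomes, had 290, 251 and 260 CPM against 157, 134 and 152 CPM in TL controls (0.85, SE 0.10), and PPL, a plakin of the cornified layer in mammals, had 812, 912 and 758 CPM against 504, 513 and 534 CPM (0.68, SE 0.11). The phospholipid-binding protein ANXA1 (0.78) and the tight junction gene cldne (0.68) rose with them. ECRG4 (ENSDARG00000088717), a secreted peptide precursor, fell, with 6.18, 8.07 and 6.17 CPM against 21.0, 16.9 and 17.9 CPM in TL controls (-1.45, SE 0.14), and its paralog ENSDARG00000056087 fell by 1.21 and lost its call without TL replicate 3 (-1.08). Between 6 and 8 members were upregulated with a library left out, and 13 with DESeq2. The summed level was 24230, 27120 and 21320 CPM in panx1a-/- larvae and 21520, 21000 and 23760 CPM in TL controls, which overlapped.

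Genes of glucose use, redox defence and the endoplasmic reticulum changed singly. GPI (ENSDARG00000103826), which interconverts the hexose phosphates of glycolysis, had 5.48, 3.78 and 3.01 CPM in panx1a-/- larvae, against 12.8, 15.9 and 21.1 CPM in TL controls (log2 fold change -2.04, SE 0.23, adjusted p = 0.000302). The glucose transporter SLC2A1 (ENSDARG00000001437) had 14.6, 17.0 and 16.6 CPM against 29.1, 34.39 and 30.5 CPM in TL controls (-0.96, SE 0.11). Of 49 glycolysis and gluconeogenesis genes 2 were up- and 3 downregulated, with a median of -0.09, and 0 were upregulated without panx1a-/- replicate 2 or 3 and 1 without any other library. In the oxidative stress and xenobiotic list 0 of 61 were up- and 6 downregulated, with a median of -0.14, among them the peroxiredoxin gene PRDX1, with 86.4, 101 and 95.6 CPM against 166, 135 and 171 CPM in TL controls (-0.74, SE 0.11). That count was 2 without replicate 3 of either line, 3 without panx1a-/- replicate 1 and 10 without TL replicate 2, and 1 was upregulated without panx1a-/- replicate 3. Of 44 unfolded protein and amino acid stress genes 0 were up- and 4 downregulated, led by the serine synthesis enzyme PSPH (-1.20, SE 0.19), and 1 was downregulated without TL replicate 3 and 2 without TL replicate 1 or panx1a-/- replicate 2 or 3. In the hypoxia and iron list of 42 genes, 2 were up- and 3 downregulated. BNIP3L (ENSDARG00000025468), a mitophagy receptor, rose, with 31.4, 30.95 and 30.4 CPM in panx1a-/- larvae against 16.4, 17.5 and 18.6 CPM in TL controls (0.82, SE 0.09), and the stress gene NDRG1 fell by 0.55. Without TL replicate 2, 5 members of that list were downregulated.

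RNA machinery was touched in a few members. Of 94 splicing genes, 0 were up- and 4 downregulated, all of the Sm core that surrounds the spliceosomal RNAs, with 2 left without TL replicate 3. SNRPD2 had 7.78, 6.35 and 6.80 CPM in panx1a-/- larvae, against 14.9, 12.4 and 13.3 CPM in TL controls (log2 fold change -0.96, SE 0.13, adjusted p = 0.00104), and SNRPD1 fell by 0.79. SNRPB (-0.55) lost its call without TL replicate 3 (-0.52), and SNRPD3 (-0.61) in every fit that left out a library other than TL replicate 2 (-0.66 to -0.50). Of 107 genes of rRNA processing 3 were up- and 6 downregulated, with a median near 0, and 2 were downregulated without TL replicate 3 or panx1a-/- replicate 3 and 3 without replicate 2 of either line. The exosome subunit gene exosc3 fell, with 5.44, 5.77 and 4.88 CPM against 15.5, 13.4 and 13.3 CPM in TL controls (-1.39, SE 0.13), while another subunit, EXOSC1, rose by 0.65. SDAD1, needed for export of the large ribosomal subunit in yeast, rose by 0.74.

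The abundant 7SL RNA, the scaffold of the signal recognition particle, had lower read levels in the panx1a-/- libraries. Its 51 tested genes, 50 Metazoa_SRP copies and rn7sl1, summed to 33998, 27705 and 32112 CPM in panx1a-/- larvae, against 54200, 57404 and 78026 CPM in TL controls, a log2 ratio of the mean sums of -1.0. The groups did not overlap. By gene, 7 copies were up- and 25 downregulated, and reads of near-identical copies cannot be assigned to one of them with certainty. With these genes left out before normalization, 538 genes were up- and 740 downregulated. As for the histones, how the libraries selected RNA is not given, so the summed level of 7SL RNA in the larvae is uncertain. Whether RNA selection differed between the lines was not tested.

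Immune genes outside the largest changes were few. Of 61 complement and coagulation genes 2 were up- and 5 downregulated, with a median of -0.06, and without panx1a-/- replicate 2 there were 7 upregulated ones, against 1 without any other library. There were 3 downregulated ones without TL replicate 1 and 8 without TL replicate 2. The gene c3a.6, one of several copies of the central complement component, had 9.75, 6.59 and 10.98 CPM in panx1a-/- larvae, against 52.3, 32.28 and 43.7 CPM in TL controls (log2 fold change -2.23, SE 0.20, adjusted p = 7.75e-05), and cfhl2, of the complement factor H family, fell by 3.73. The clotting protease F10 rose, with 50.3, 56.3 and 58.8 CPM against 29.1, 20.8 and 30.5 CPM in TL controls (1.04, SE 0.14). Of 54 interferon and antigen presentation genes 2 were up- and 1 downregulated, with 1 upregulated without replicate 2 or 3 of either line. The downregulated count was 2 without TL replicate 2 and 0 without replicate 3 of either line. The guanylate-binding protein gene gbp3 had 27.18, 28.1 and 25.04 CPM against 9.70, 7.82 and 7.56 CPM in TL controls (1.68, SE 0.12, adjusted p = 1.81e-05). Of 71 innate immunity and inflammation genes 1 was up- and 1 downregulated. The inflammasome sensor nlrp3 rose by 1.51, while pycard fell by 0.51 and lost its call without replicate 1 or 3 of either line. No member of the macrophage and microglia (25 tested) or neutrophil (11 tested) lists passed the test, with medians of -0.40 and -0.39. Of 14 T and NK cell and thymus markers 2 were upregulated, with a median of 0.48, namely the thymus homing receptor CCR9 (1.11) and the recombinase RAG1 (0.98). The call of RAG1 was lost with any 1 library left out (0.73 to 1.1), and that of CCR9 without TL replicate 3 (1.13) or panx1a-/- replicate 2 (1.00).

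Erythroid markers moved little as a group. Of 21 tested, 4 were downregulated and the median was 0.04. The biliverdin reductase gene blvrb had 10.26, 8.93 and 7.54 CPM in panx1a-/- larvae, against 17.1, 16.7 and 15.7 CPM in TL controls (log2 fold change -0.89, SE 0.13, adjusted p = 0.00162). The call of blvrb held with every library left out. In all, 1 member was downregulated without TL replicate 1 or panx1a-/- replicate 1 or 2, and 2 without panx1a-/- replicate 3. Without panx1a-/- replicate 1 there was also 1 upregulated member.

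Purinergic genes, which handle the ATP that pannexin channels release, were mostly near TL. Of 48 tested, 2 were up- and 2 downregulated, with a median of -0.02. The ATP-gated channel gene p2rx7 had 3.00, 3.39 and 4.22 CPM in panx1a-/- larvae, against 7.45, 7.73 and 8.06 CPM in TL controls (log2 fold change -1.13, SE 0.16, adjusted p = 0.00146). The groups were clear of each other. The nucleoside transporter SLC29A2 (-1.32), the adenosine receptor gene adora2ab (1.2) and the transporter SLC29A1 (0.48) passed the test with all libraries, and each lost its call in at least 3 of the 6 leave-one-out fits. Upregulated members numbered 0 without panx1a-/- replicate 1 or 2 and 1 without any other library, and 1 was downregulated in each of these fits other than that without panx1a-/- replicate 1 (2). In the dopamine and adenosine signalling list of 32, 2 were up- and 1 downregulated, and 0 were upregulated without panx1a-/- replicate 1 or 2 and 1 without any other library. The downregulated count was 1 without TL replicate 2 and 0 without any other library. Of 26 connexin genes, the gap junction channels of vertebrates, 1 was downregulated. This was gjc4a.2, with 8.20, 9.74 and 7.85 CPM against 15.2, 16.6 and 15.3 CPM in TL controls (-0.87, SE 0.12).

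Few genes of the eye were called. Of 26 cone photoreceptor markers 2 were downregulated, with a median of -0.23, and of 19 rod markers none, with a median of 0.22. The guanylate cyclase activator gene guca1c had 23.3, 23.6 and 24.8 CPM in panx1a-/- larvae, against 38.1, 34.2 and 33.5 CPM in TL controls (log2 fold change -0.56, SE 0.09, adjusted p = 0.00326). The cone channel subunit CNGA3 fell by 0.63 and lost its call without TL replicate 1 or 3 or panx1a-/- replicate 1 or 3 (-0.64 to -0.57). In the lens list of 48 genes 2 gamma-crystallin genes were downregulated, crygm2d16 with 78.2, 113 and 95.9 CPM against 167, 183 and 170 CPM in TL controls (-0.86, SE 0.12) and its near copy crygm2d21 (-0.91, SE 0.13). Of 49 circadian clock genes 1 was called. The nuclear receptor gene nr1d2a, of the family of clock repressors, had 116, 127 and 129 CPM in panx1a-/- larvae, against 167, 206 and 182 CPM in TL controls (-0.58, SE 0.10, adjusted p = 0.00508). The pineal list had 1 of 12 upregulated. The core clock genes of the list, among them CLOCK, BMAL1, PER1, PER2 and CRY1, did not pass both cut-offs.

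Across the 45 lists of tissue and cell type markers, 1005 of 1051 matched members were tested, and 19 lists had no called member. Each list had at least 5 tested members, where tested means at least 1 count in every library. Some entries stand in more than 1 list, so detection of each cell type was not shown. In the horizontal cell list the connexins cx55.5, cx52.6, cx52.7 and cx52.9 found no match. The lists without a call included fast skeletal muscle (33 tested, median 0.0045), myelin and oligodendrocyte (16, -0.08), GABA and glycine neuron (15, -0.07), glutamate neuron (18, 0.04), hypothalamic peptide (38, -0.08), endothelium (20, -0.08) and melanophore (15, -0.02). Cartilage and bone had 2 of 38 members downregulated, with a median of -0.26, led by the cartilage collagen gene col9a1b, with 84.6, 110 and 125 CPM in panx1a-/- larvae against 201, 180 and 241 CPM in TL controls (log2 fold change -0.96, SE 0.15). Kidney had 2 of 28 upregulated with a median of 0.18, the inner ear and lateral line 2 of 32 with a median of 0.15, and thyroid 1 of 13. OTOG, a protein of the membranes over hair cells, had 19.7, 22.3 and 21.3 CPM against 12.8, 10.8 and 12.4 CPM in TL controls (0.81, SE 0.11). IYD, which recycles iodide in the thyroid, had 4.59, 4.75 and 4.53 CPM against 1.44, 2.16 and 1.98 CPM in TL controls (1.31, SE 0.20). The motile cilium list had 1 of 34 called in each direction. Its lower member CCDC39, a ruler protein of the axoneme, had 14.1, 13.5 and 15.4 CPM against 54.5, 51.6 and 53.9 CPM in TL controls (-1.90, SE 0.09, adjusted p = 9.80e-07). The liver list had 2 of 52 upregulated and a median near 0, fibroblast and fin 2 of 32, interrenal and stress axis 2 of 26, islet 1 of 29 and germ line 1 of 14 with a median of 0.43, none with a downregulated member. STMN1 (ENSDARG00000004169), a microtubule regulator of young neurons and dividing cells, was the called gene of the general neuron list (30 tested), with 14.4, 13.99 and 14.5 CPM against 27.3, 22.6 and 29.2 CPM in TL controls (-0.89, SE 0.11). The cochaperone AHSA1 rose by 1.72 and the chaperonin subunit TCP1 fell by 0.57 in a heat shock and folding list of 50 with no other call. Of 47 proteasome genes 1 was called in each direction, and the core subunit PSMB7 rose, with 63.9, 83.6 and 72.1 CPM in panx1a-/- larvae against 46.3, 39.92 and 47.0 CPM in TL controls (0.72, SE 0.11). STARD4, a cholesterol carrier, had 12.7, 11.5 and 12.3 CPM against 6.47, 6.84 and 7.12 CPM in TL controls (0.83, SE 0.12) and was the called gene among 30 of cholesterol synthesis.

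The same gene was also lost in the panx1b-null background, where the double knock-out was compared with panx1b-/- larvae, sharing no library with the comparison above. Of 24808 genes tested there, 953 (3.84%) were up- and 1359 (5.48%) were downregulated. Of the 79 cell cycle genes, 0 were up- and 38 downregulated there (median -1.0), beside 0 and 8 in panx1a-/- against TL. The level in panx1b-/- larvae is a term of the first of these comparisons. CENPF, not called there (-0.88), was at 0.63 in panx1b-/- and at -0.26 in double knock-out larvae against TL. MCM5 was at 0.07 and -1.38 in the same order, and MCM4 at -0.16 and -1.46. PCNA fell by 0.82 in the panx1b-null background and by 1.69 in panx1a-/- against TL. The difference of 0.87 was itself past the adjusted threshold (adjusted p = 0.0258) but not the p-value cut-off. The 18 cluster histones were all below 0 in that background, with 10 downregulated and a median of -0.90. In the lipid list 3 were up- and 11 downregulated there, and PLIN2 had a log2 fold change of -2.69, beside -2.61 in panx1a-/- against TL. The respiratory chain list had 0 up- and 10 downregulated, with cycsb at -0.48, and the enterocyte list 1 up- and 11 downregulated, with FABP1 at -0.95. Single genes that passed the test in the same direction in both backgrounds, without a called difference between them, were c6.1 (-4.95, beside -3.78), ifi44a5 (-3.01, beside -2.98), pih1d2 (2.88, beside 3.2), p2rx7 (-0.92, beside -1.13), BNIP3L (0.87, beside 0.82), STMN1 (-1.03, beside -0.89) and IYD (1.18, beside 1.31).

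The epidermis and pancreas lists had medians of opposite sign in the backgrounds. In double knock-out against panx1b-/- larvae 0 epidermal genes were up- and 10 downregulated, with a median of -0.38, and of the pancreatic genes 1 was up- and 5 downregulated, with a median of -0.44. The difference of the panx1a effect between backgrounds, tested as the interaction of both genotypes over all 12 libraries, was called for 1292 of 24261 genes (5.33%), 622 above 0 (2.56%) and 670 below 0 (2.76%). Among epidermal genes 15 of 53 were called below 0 and 2 above, and among pancreatic genes 5 of 34 below and 1 above. Both lists stood out for their upregulated members against TL, and that fold change is itself a term of the difference. Nothing is therefore read from these counts. For amy2al2 the log2 fold change was -0.12 in the panx1b-null background, for CPA1 -0.48, for ITGB4 0.07 and for PPL -0.22. Lens genes (median -0.09 against TL) went the opposite way, as did, among other lists, cone photoreceptor markers (-0.23) and activity-regulated genes (-0.16). In the panx1b-null background their medians were 0.67, 0.34 and 0.26. There 10 of 50, 5 of 26 and 7 of 38 were upregulated, beside 3.84% of all genes tested. Of the lens genes, crygm2d16 (1.22) and crygm2d21 (1.2) rose in that background. The genes exosc3 (1.45), CCDC39 (0.87), cbln8 (2.86) and nlrb5 (1.92) also rose there, although each fell in panx1a-/- against TL. In turn, gbp3 (-0.79) and F10 (-0.82) fell there although both rose in panx1a-/- against TL. Some of the genes of this paragraph already differed in panx1b-/- larvae against TL, with CCDC39 at -2.67, F10 at 1.39 and CPA1 at 1.09, while ITGB4 did not (-0.004). In the double knock-out against TL, CCDC39 (-1.81), F10 (0.56) and CPA1 (0.60) kept the sign they had in panx1a-/- against TL.

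**Figure D4:**
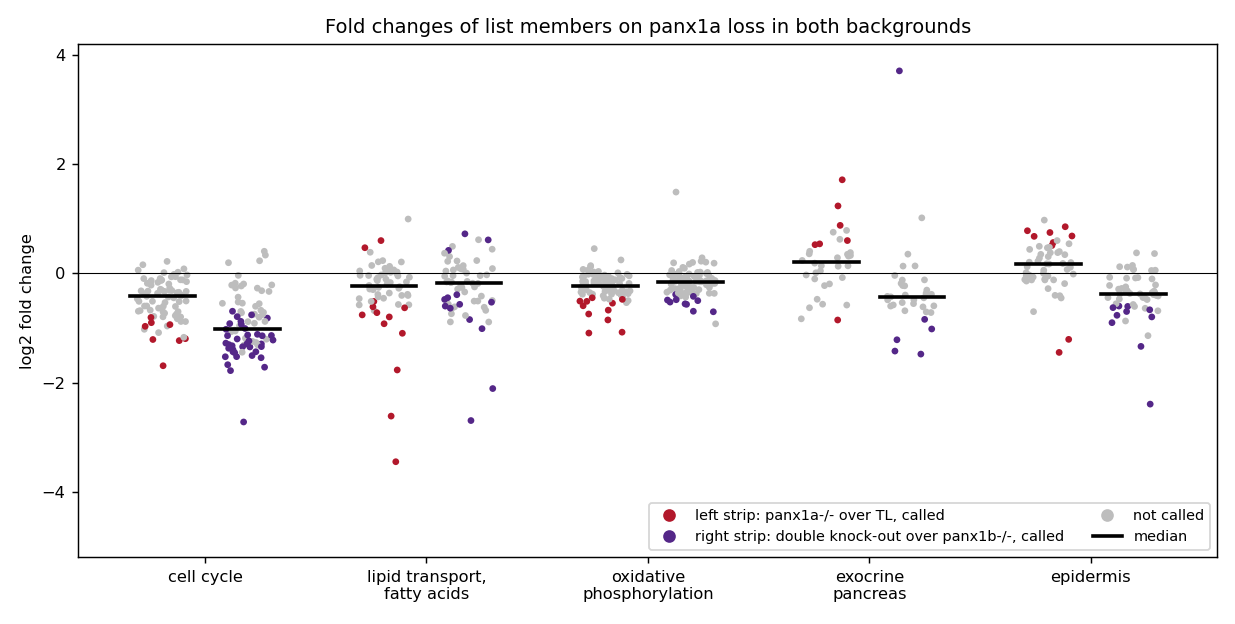
Log2 fold change (vertical axis) of each tested member of selected lists on loss of panx1a, with panx1a-/- over TL control in the left strip and double knock-out over panx1b-/- in the right strip of each list. Coloured points are called genes, grey points are not called, and bars are medians. The epidermis median is 0.17 in the left strip and -0.38 in the right one.

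Genes near panx1a in the order of the RefSeq annotation were set apart, since a line carries the chromosome on which its lesion was made. Only tested genes with a place in that order were counted, and those that share a symbol, among others, had none. Of the 50 nearest placed genes before panx1a 5 were called and of the 50 after it 4, beside 4.92% of all 15961 placed genes. These were the downregulated alox5b.2 (-2.56), si:dkey-77f5.3 (-1.03), IGSF10 (-0.61), guca1c (-0.56) and CHCHD2 (-1.0), and the upregulated MLF1 (0.92), LXN (1.25), cldne (0.68) and ANKRD49 (1.33). The call of alox5b.2 ended without panx1a-/- replicate 2 or 3 and that of IGSF10 in every fit without 1 library other than TL replicate 2, at -3.06 to -2.27 and -0.70 to -0.50 over the fits with a library left out. LXN, a carboxypeptidase inhibitor, had 157, 181 and 162 CPM in panx1a-/- larvae, against 72.8, 62.9 and 75.0 CPM in TL controls. The epidermal gene cldne and the cone gene guca1c, named above, are thus among the nearest placed genes in this order, which gives no distance. Whether their change follows the lesion or the chromosome that carries it was not tested.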

How the data were processed

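Total RNA of whole larvae was made into strand-specific libraries (NEBNext Ultra II Directional). The authors deposited raw counts, a whole number of reads for each of 31261 Ensembl genes per library, not normalized and not pooled. The submitters' processing notes name bcl2fastq 2.17, FastQC 0.11.2, Trim Galore 0.4.4, TopHat2 2.0.11, HTSeq 0.6.1p2 and the build danRer11. The study's methods describe RSEM, and the strand setting of the counts is not given in the sources used here, so overlapping and antisense genes cannot be told apart with certainty.

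Fold changes were computed in R 4.3.3 with edgeR 4.0.16 (TMM, glmQLFit, glmQLFTest, Benjamini-Hochberg adjustment) on the 6 libraries of both groups and genes with at least 1 count in each. A call needed an adjusted p-value under 0.05 and, as the study used for its RNA-seq results, an unadjusted one under 0.001. Each standard error was derived by dividing the fold change by the root of F. CPM were scaled with TMM factors. The interaction used all 12 libraries. DESeq2 1.42.0 was the alternative test, and the procedure was tested on simulated data. An exact permutation test of 3 against 3 libraries cannot go below a two-sided p of 0.1. Python 3.11.15 with matplotlib 3.10.9 drew the figures.

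The genes named are the pannexins, the 12 called genes per direction with the largest fold change, a mean of at least 1 CPM and an informative symbol, the 3 per direction whatever their symbol, and up to 4 called genes with the smallest p from each of 70 gene lists (45 of cell types and 25 of pathways). Genes of lists with few calls are mostly given by count. Histone groups, runs of neighbouring genes and further called list members were chosen after their values were seen. The libraries and lists were chosen with earlier results of these data known. Symbols matched 28223 identifiers (90.3%), and 196 list entries found no match. Gene order came from the RefSeq annotation of GRCz12tu. Results of some called genes are not reported here.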

Additional observations from a re-analysis of the deposited data

Results flagged for a closer look

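These genes stood out because the effect of panx1a loss differed between the panx1b-null and the TL background in the interaction test of edgeR over all 12 libraries. Values are log2 differences, the effect in the panx1b-null background minus that in the TL background, and no gene here has an adjusted p-value above 0.0148. Of 129 genes named and tested in this way, pycard not included, 54 passed both cut-offs, beside 5.33% of all genes tested. Most of the 129 were named for their change against TL, which is itself a term of the difference, so nothing is read from that share.

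For 34 of the 54 genes the effects had opposite signs. Some of these effects were near 0 in the panx1b-null background, such as PSPH (0.03), SNRPB (0.03) and znf1179 (0.06). For such genes the opposite sign does not show a reversal. Opposite signs need not place the double knock-out on the other side of TL. Against TL, CCDC39 (-1.81) and F10 (0.56) stayed on the side of panx1a-/- larvae, while ANXA1 (-0.41) did not. Some of these genes were already called in panx1b-/- larvae against TL, on the same side as in panx1a-/- larvae. Among them were ENSDARG00000114158 (2.66), B3GNT3 (2.11), CCR9 (1.58) and CNGA3 (-1.27), while ANXA1 (0.08) was not called there. Genes with higher effects in the panx1b-null background were cbln8 at 6.1, alox5b.2 at 4.78, nlrb5 at 4.77, znf1179 at 3.19, coro2ab at 3.04, exosc3 at 2.84, CCDC39 at 2.76, c3a.6 at 2.63, the crystallin genes crygm2d21 at 2.1 and crygm2d16 at 2.07, PSPH at 1.23, CNGA3 at 1.07, nr1d2a at 0.91, guca1c at 0.88 and SNRPB at 0.58. The Metazoa_SRP copy ENSDARG00000116411 differed by 8.58. Genes with lower effects there were ENSDARG00000114158 at -5.85, B3GNT3 at -4.45, adh5l at -3.36, HEPH at -3.19, epx at -2.67, gbp3 at -2.48, F10 at -1.86, nlrp3 at -1.74, CCR9 at -1.63, adora2ab at -1.57 and SLC6A19 at -1.01. Pancreatic genes among them were amy2al2 at -1.83, cela1.3 at -1.60 and CPA1 at -1.36, and epidermal ones ANXA1 at -1.26, cldne at -0.96 and PPL at -0.90. PANX1 (ENSDARG00000014910) differed by -1.15, with log2 fold changes of -0.64 in the panx1b-null background and 0.51 against TL. The effects of cbln8 were 2.86 in the panx1b-null background and -3.24 against TL.

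For 20 genes the sign was the same in both backgrounds and the sizes differed. Some of their effects in the panx1b-null background were near 0, such as ndufc1 (-0.01), sult3st5 (0.03) and ITGB4 (0.07). For such genes a shared sign does not show a shared effect. Differences above 0, among genes lower in panx1a-/- larvae than in TL, were found for apoa4b.3 at 2.77, TRIM62 at 2.48, GPI at 1.3, ECRG4 at 1.17, RBP2 at 1.12, ITLN1 at 1.08, ndufc1 at 0.84, SNRPD1 at 0.68, cycsb at 0.59 and the Metazoa_SRP copy ENSDARG00000114626 at 7.13. Differences below 0, among genes higher in panx1a-/- larvae than in TL, were found for the GGACT genes ENSDARG00000038248 at -3.42 and ENSDARG00000070579 at -2.35. So they were for clca1 at -2.66, sult3st5 at -2.45, sult3st4 at -2.20, ccdc125 at -1.73, LXN at -1.13, ITGB4 at -0.78 and krt94 at -0.60. The difference of nlrc11 was -2.63, but this gene fell in both backgrounds, by -9.4 in the panx1b-null one and -6.77 against TL. Its counts in panx1a-/- larvae were few, so that difference depends on single reads.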

How the results depend on the processing

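The 208 genes followed individually kept the sign of their fold change under each of the 16 alternatives that gave them a value, and 108 of them kept the same call under each of these. A minimum of 10 counts per library gave values for 188 of the genes and removal of the 7SL copies for 205, and the other alternatives gave values for all. With each library left out in turn, 106 of 200 called genes kept their call and 94 lost it at least once. The number of upregulated genes was 572 and lay between 354 (without TL replicate 3) and 510 (without TL replicate 2) with a library left out, with 355 without panx1a-/- replicate 3. The number of downregulated genes was 722 and lay between 425 (without TL replicate 3) and 941 (without TL replicate 2), with 479 without panx1a-/- replicate 3. With the adjusted p-value alone, 1006 genes were up- and 1208 downregulated, which follows from dropping the second cut-off. Median-of-ratios factors gave 577 and 728 genes, library size alone 637 and 673, DESeq2 749 and 953, no minimum count 644 and 979, at least 10 counts per library 492 and 583, filterByExpr 576 and 750, all 12 libraries in one fit 724 and 897, and removal of the 7SL copies 538 and 740.

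No shared deviation of same-numbered libraries was seen. Their deviations correlated at -0.0035, -0.045 and 0.026 across 21636 genes, and those of other pairs at -0.098 to 0.081. Whether same-numbered pools shared a clutch or a batch was not tested. Under a replicate block, 447 genes were up- and 631 downregulated, of which 414 and 576 were called in the same direction without it. Among the 208 genes, 36 lost and 1 gained a call under the block.

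Each line was 1 line sampled as 3 pools, so culture, clutch and genotype cannot be told apart. Genes with few counts, such as nlrc11 with 4, 5 and 7 counts in panx1a-/- larvae, have folds that depend on single reads.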
